A study of Homo sapiens with 4 samples.

Results

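Long non-coding RNAs (lncRNAs) that carry small RNAs were compared between VIRMA-overexpressing and eGFP control SKBR3 cells. The genes were chosen by name and level. A row of the count table was taken when it was named SNHG followed by a number, when its name began with MIR and ended with HG, or when it was GAS5, ZFAS1 or DANCR, and when its counts summed to at least 100 over the 4 libraries. Of 56271 rows, 75 had such a name and 39 reached the minimum. These were 23 snoRNA hosts (of 25 named) and 16 microRNA hosts (of 50 named, 16 of which had no count in any library). The summed count chose the members, so their levels are given as a description. The difference between the groups was not a criterion, but because the sum runs over both groups it could carry a low gene over the minimum. The member nearest the minimum was MIR4697HG, with 120 counts, 86 of them in the VIRMA-overexpressing libraries, and the row nearest below it was MIR181A2HG, with 89.

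SKBR3 is an established HER2-positive breast cancer cell line. Its cells were transduced with lentivirus, and there were 2 libraries of cells carrying eGFP alone (eGFP control) and 2 of VIRMA-overexpressing cells. VIRMA is a subunit of the complex that deposits N6-methyladenosine on RNA. The study's methods describe the overexpressed VIRMA as HA-tagged, full length, and separated from eGFP by a p2A sequence, and the eGFP of the control vector as driven by a ubiquitin C promoter. The libraries were poly-A enriched and are duplicates of each transduced line, so a difference between the lines that arose from transduction and a difference due to VIRMA cannot be told apart. Whether the cultures were kept at low oxygen, as the growth protocol of every library says, could not be settled. Totals ran from 81446932 to 86375474 counts per library. VIRMA itself, listed as KIAA1429, was counted 710 and 682 times in the eGFP controls and 3437 and 3460 times after VIRMA overexpression (log2 fold change 2.26). Of 12 markers of HER2-positive luminal cells, 10 were above 10 CPM (counts scaled to library size). The others were CDH1, at 11, 5, 17 and 33 counts, and TFAP2B, at 448, 366, 308 and 257. In the VIRMA-overexpressing libraries 6 of the 12 were lower and 6 higher without overlap (38.8% of all genes were lower and 40.1% higher without overlap). Of 12 erythroid markers 9 were lower and 1 was higher without overlap. They summed to 28.6 and 20.6 CPM against 0.763 and 0.818. Nearly all of the control sum was HBB (2137 and 1543 counts against 0 and 0), and HBG1 was at 0 throughout. Of 12 leukocyte markers 8 were lower and 1, CD3E, was higher, with a sum of 32.8 and 30.0 against 16.6 and 16.3 CPM, nearly all of it CSF1R, and MS4A1 was at 0. Fibroblast markers summed to 14.0 and 13.6 against 8.37 and 9.05 CPM (4 of 8 lower) and endothelial markers to 7.92 and 6.64 against 8.15 and 8.98. Their part in the differences below was not tested.

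A host gene is transcribed as an ordinary spliced RNA, and the small RNAs are released from it. Small nucleolar RNAs (snoRNAs) lie in introns, are trimmed out of the debranched intron, and guide the methylation or pseudouridylation of ribosomal and spliceosomal RNA. The spliced exons that remain form the host lncRNA, and for many snoRNA hosts they are short-lived because ribosomes engage them and nonsense-mediated decay removes them. MicroRNA hosts carry hairpins in introns or exons, which Drosha cuts from the primary transcript and Dicer trims to mature microRNAs. When the hairpin lies in an exon, this cut destroys the host transcript. The libraries here count the polyadenylated host and not the mature small RNA.

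By coordinates, 15 microRNA hosts and 2 snoRNA hosts held mature microRNAs listed in RefSeq (GRCh38.p14). MIR2052HG and SNHG6 were left out of this search and are not counted, although the row of MIR2052 lies in an intron of MIR2052HG. The arms below belong to the microRNA hosts that differed most between the groups, and to the hosts that share a seed with them; bases 2 to 8, the seed that pairs with targets, are in capitals.

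hsa-miR-503-5p: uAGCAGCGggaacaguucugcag

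hsa-miR-424-5p: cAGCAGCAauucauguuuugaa

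hsa-miR-22-3p: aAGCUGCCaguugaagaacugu

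hsa-miR-4697-3p: uGUCAGUGacuccugccccuuggu

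hsa-let-7a-5p: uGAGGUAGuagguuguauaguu

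hsa-let-7b-5p: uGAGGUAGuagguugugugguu

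hsa-let-7c-5p: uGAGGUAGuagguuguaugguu

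hsa-miR-4458: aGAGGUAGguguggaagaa

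hsa-miR-210-3p: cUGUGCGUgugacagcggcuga

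hsa-miR-9-5p: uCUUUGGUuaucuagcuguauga

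The row of MIR503HG, on the minus strand of chromosome X, held miR-503-5p in an intron (chrX:134546371-134546393) and miR-424-5p in its first exon (chrX:134546680-134546701). Their seeds differ only in the last base. The RefSeq start of MIR503HG lies 81 bases inside the start of the row, so miR-424-5p lies upstream of that start. MIRLET7BHG held let-7a-5p (chr22:46112752-46112773) and let-7b-5p (chr22:46113691-46113712), both in an exon. Their seed recurred in let-7c-5p, in an intron of MIR99AHG (chr21:16539838-16539859), and in miR-4458, in an exon of MIR4458HG (chr5:8460933-8460951). miR-210-3p lay in an intron of MIR210HG (chr11:568112-568133), and miR-22-3p (chr17:1713914-1713935), miR-9-5p (chr15:89368032-89368054) and miR-4697-3p (chr11:133898506-133898529) in exons of MIR22HG, MIR9-3HG and MIR4697HG.

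snoRNA hosts were the more abundant class. Their CPM summed to 1461 and 1495 in the eGFP controls and to 1602 and 1619 in the VIRMA-overexpressing libraries, whereas microRNA hosts summed to 108.4 and 111.2 against 131.6 and 135.0. In each class a single gene accounted for the higher sum. GAS5 made up 21.1% and 21.0% of the snoRNA host sum in the controls and 30.1% and 30.4% with VIRMA, and the other 22 hosts summed to 1153 and 1180 CPM against 1120 and 1126. MIR503HG made up 16.9% and 14.4% of the microRNA host sum in the controls and 34.7% and 32.2% with VIRMA, and the other 15 hosts summed to 90.08 and 95.12 against 85.88 and 91.52 CPM, which overlap. The ratio of the class sums went from 13.5 and 13.4 to 12.2 and 12.0.

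**Figure D1:**
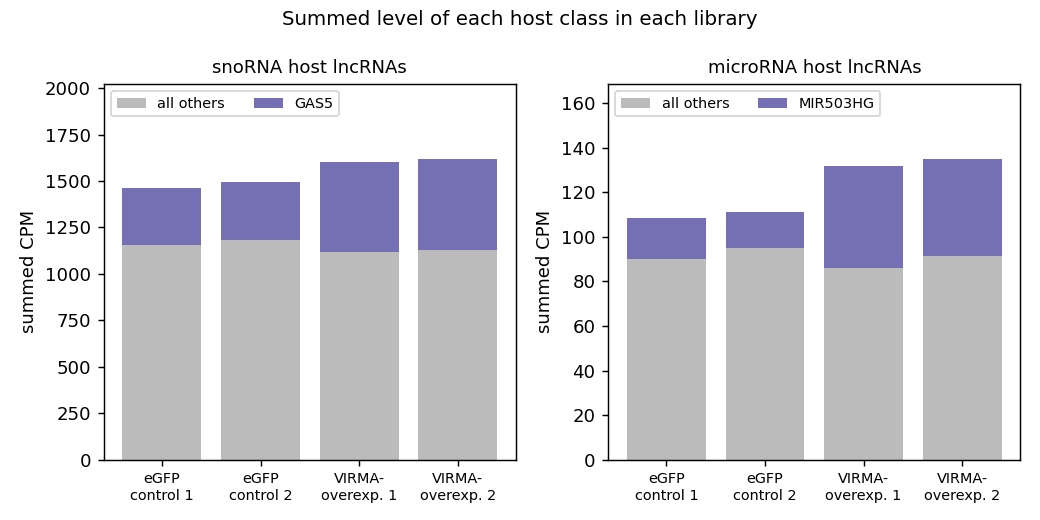
Summed CPM of the 23 snoRNA hosts (left) and the 16 microRNA hosts (right) in each of the 4 libraries, as bars split into the most abundant member and all others. The purple part grows from 21.1% and 21.0% to 30.1% and 30.4% for GAS5 and from 16.9% and 14.4% to 34.7% and 32.2% for MIR503HG, while the grey part does not grow.

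Changes went in both directions within each class. At an adjusted p below 0.05 (edgeR's quasi-likelihood test, Benjamini-Hochberg over 16914 genes), 9 snoRNA hosts were higher with VIRMA, 5 were lower and 9 did not pass. Among microRNA hosts 3 were higher, 3 were lower and 10 did not pass. The 3 higher include MIR4697HG, which reached the minimum only through the group in which it was high. Over all genes tested 29.2% were higher and 30.5% lower, 59.7% in all, beside 60.9% of the snoRNA hosts and 37.5% of the microRNA hosts, MIR4697HG included. Of the 677 lncRNA genes tested 245 were higher and 52 lower, 43.9% in all. The differences between those shares were not tested.

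Requiring a change of more than 2-fold as well left 1 snoRNA host, SNHG9, which was lower, and 2 microRNA hosts, MIR503HG and MIR4697HG, which were higher. MIR4697HG reached the minimum only through the group in which it was high, so its call supports nothing about the class, and the count without it is 1. The background for that rule was 5.66% higher, 4.03% lower and 9.68% in either direction. The median log2 fold change was 0.046 for snoRNA hosts (range -1.395 to 0.841) and 0.113 for microRNA hosts (range -0.961 to 1.376), beside 0.023 for all genes. All 677 lncRNA genes tested had a median of 0.299, with 74 past both thresholds upwards and 14 downwards, 13.0% in all. The groups did not overlap for 19 of 23 snoRNA hosts (11 higher, 8 lower) and 9 of 16 microRNA hosts (6 higher, MIR4697HG among them, and 3 lower). The same held for 78.9% of all genes (40.1% higher, 38.8% lower) and 70.0% of the lncRNA genes tested. No test of either class, or of the difference between them, was made.

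**Figure D2:**
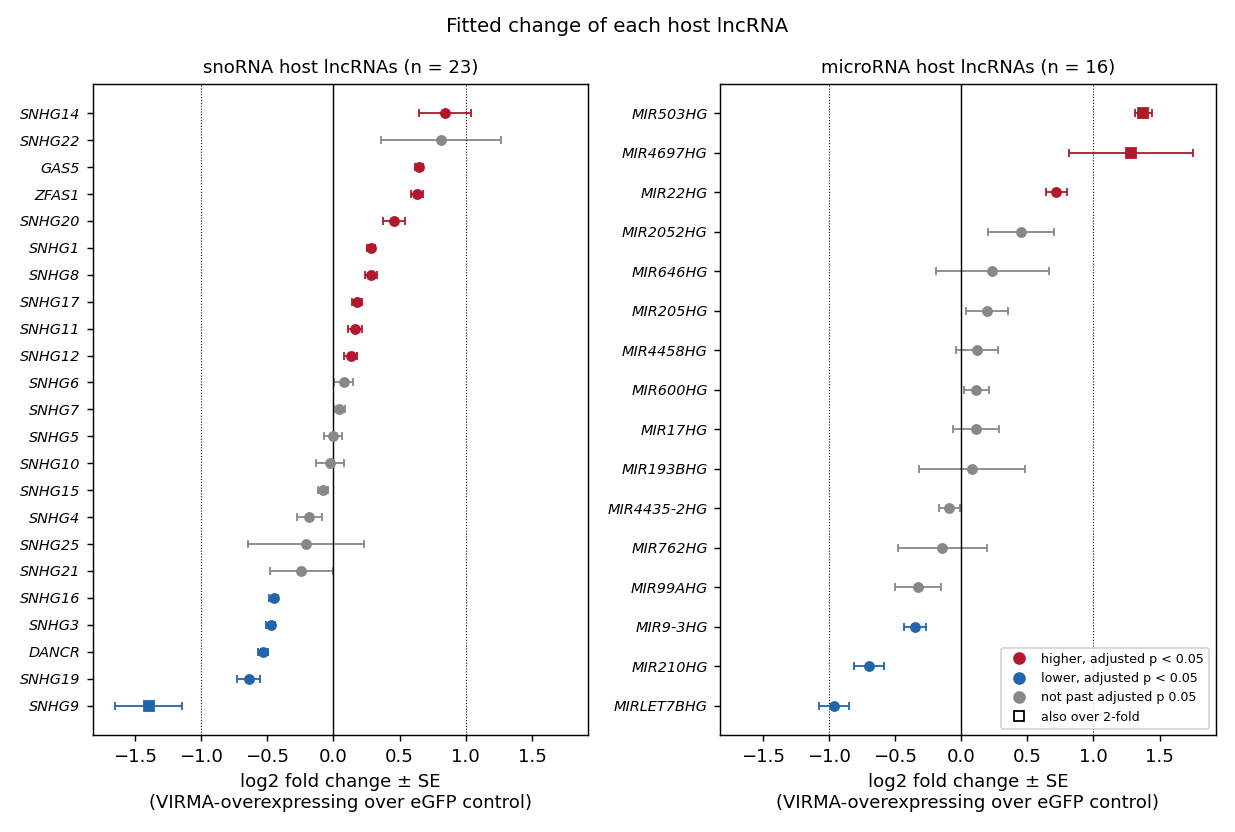
Log2 fold change of each member (point) with its standard error (bar), VIRMA-overexpressing over eGFP control, snoRNA hosts on the left and microRNA hosts on the right; red and blue mark an adjusted p below 0.05, squares a change over 2-fold as well, dotted lines 2-fold. All snoRNA hosts but SNHG9 (-1.40) lie between -0.64 and 0.84, and MIR503HG (1.38) and MIR4697HG (1.28) lie beyond the right dotted line.

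By CPM, GAS5 was the most abundant snoRNA host and had the largest rise among snoRNA hosts above 10 CPM. GAS5 (chr1:173863900-173868882, minus strand) carries box C/D snoRNAs in its introns, and its spliced RNA accumulates when translation slows. Its counts were 25384 and 26033 in the eGFP controls against 41719 and 41557 with VIRMA. The replicates lay close together and the groups far apart: 311.1 ± 4.7 CPM against 487.4 ± 7.49 (SD, n = 2), or 0.65 ± 0.0286 on the log2 scale (standard error, SE, of the fit; edgeR adjusted p = 1.7e-14).

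ZFAS1 (chr20:49278178-49295738, plus strand), a lncRNA antisense to ZNFX1, had 5590 and 5328 counts against 9214 and 8297. Its row holds SNORD12B and SNORD12C in introns and SNORD12 in an exon. Both VIRMA-overexpressing libraries were higher, by a log2 fold change of 0.63 ± 0.0428 (edgeR adjusted p = 2.25e-11). ZNFX1, on the opposite strand, had a log2 fold change of -0.09 (edgeR adjusted p = 0.0252). Of the exonic bases of ZFAS1, 20.9% were shared with exons of other rows on its strand and 26.1% with exons on the opposite strand, so its counts cover only part of the gene, as described below.

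SNHG1 and SNHG8, 2 hosts often raised in tumours, were higher by less. SNHG1 (chr11:62851988-62855914, minus strand) had 11987 and 12128 counts against 15510 and 14855, a log2 fold change of 0.28 ± 0.0323 (edgeR adjusted p = 1.01e-07). SNHG8 (chr4:118278709-118279823, plus strand), whose exons overlap no other row, had 3475 and 3684 against 4594 and 4414, also 0.28 ± 0.0464 (edgeR adjusted p = 1.72e-05). SNHG17 (chr20:38420588-38435353), which carries the SNORA71 family, had 7685 and 8342 counts against 9308 and 9446, a rise of 0.18 on the log2 scale (edgeR adjusted p = 0.000569). SNHG12 (chr1:28578538-28582983) had 3847 and 3452 against 4178 and 4078. Its log2 fold change of 0.13 was just past the threshold (edgeR adjusted p = 0.0363) and missed it in 7 of 14 alternatives, among them DESeq2 (adjusted p = 0.105) and the fits without eGFP control replicate 2 (0.483) or either VIRMA-overexpressing replicate (0.0524 and 0.0546). SNHG11 (chr20:38446578-38450921) had 2652 and 2527 counts against 2986 and 3016, a log2 fold change of 0.16 (edgeR adjusted p = 0.0129), which was lost without eGFP control replicate 2 (0.106) or VIRMA-overexpressing replicate 2 (0.0752).

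DANCR, SNHG3 and SNHG16 were lower, by 0.45 to 0.53 on the log2 scale. DANCR (chr4:52712404-52720351, plus strand), named for holding back differentiation, had 10842 and 11472 counts against 7916 and 8030, or 135.0 ± 5.02 CPM against 93.35 ± 2.63, and fell by 0.53 ± 0.0373 (edgeR adjusted p = 4.04e-11). SNHG3 (chr1:28505980-28510892), which holds SNORA73A and SNORA73B, had 12084 and 12413 counts against 9326 and 8919 and fell by 0.47 (edgeR adjusted p = 6.7e-11). RCC1, whose row spans all exons of SNHG3 on the same strand, fell by 0.35. SNHG16 (chr17:76557766-76565348) had 14374 and 14475 counts against 10806 and 10994 and fell by 0.45 (edgeR adjusted p = 1.25e-10). In all 3 genes every VIRMA-overexpressing library was below every control.

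The other 2 hosts that fell were the short ones. SNHG19 (chr16:2154797-2155358, minus strand, 342 exonic bases) had 2322 and 2937 counts against 1621 and 1868, a log2 fold change of -0.64 ± 0.0872 (edgeR adjusted p = 1.5e-06). SNHG9 (chr16:1964959-1965509, plus strand, 551 bases), which carries SNORA78 and lies beside the ribosomal protein gene RPS2, had 218 and 374 counts against 88 and 144. It fell by 1.40 ± 0.253 (edgeR adjusted p = 5.81e-05), the only snoRNA host past both thresholds. Its duplicates differed by 0.773 on the log2 scale within the controls and by 0.747 within the VIRMA-overexpressing pair, and without eGFP control replicate 2 the change was -0.957, under 2-fold. The third host under 600 bases, SNHG25, had 39 and 36 counts against 28 and 39 and did not pass. The 1005 tested genes under 600 bases had a median log2 fold change of 0.231, with 121 past both thresholds upwards and 36 downwards. SNHG19 and SNHG25, like SNHG4, SNHG5, SNHG7, SNHG11, SNHG14, SNHG20, SNHG21, MIR762HG, MIR4458HG and the small-RNA rows below, were named after their values were seen. So were SNHG6, SNHG10, MIR646HG and MIR2052HG.

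SNHG15 (chr7:44983023-44986961), a short-lived stress-responsive transcript, had 7905 and 8142 counts against 8076 and 7623, a log2 fold change of -0.08 (edgeR adjusted p = 0.0681). It passed with DESeq2 size factors (0.0421) and with filterByExpr (0.0401) and had the opposite sign when scaled by library totals (0.032). SNHG20 (chr17:77086716-77094990), which also holds miR-6516, had 825 and 814 against 1159 and 1169, a log2 fold change of 0.46 (edgeR adjusted p = 7.16e-05), while SEC14L1, whose span covers all its exons on the same strand, was at -0.76. SNHG14 (chr15:24978583-25419462), the long transcript that carries the SNORD115 and SNORD116 clusters and is best known from neurons, had 137 and 128 counts against 245 and 246, a log2 fold change of 0.84 (edgeR adjusted p = 0.000822). With 36573 exonic bases its level was only 0.04385 against 0.07859 RPKM. It shares exons with SNRPN, at a log2 fold change of 1.10. SNHG22, with 38 and 18 counts against 57 and 45, did not pass (log2 fold change 0.81 ± 0.451, edgeR adjusted p = 0.129). It passed both thresholds only without eGFP control replicate 1, at 1.45. MYO5B, on the opposite strand, spans 83.8% of the exonic bases of SNHG22 and was at 0.31.

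Per base of the exonic length of its row, SNHG19 was the highest member in the eGFP controls at 93.03 RPKM, followed by GAS5 at 85.69 and DANCR at 59.09. In the VIRMA-overexpressing cells GAS5 was at 134.2, SNHG19 at 59.77 and SNHG8 at 57.11. The length used covers every exonic base of the row, 342 for SNHG19 and 3631 for GAS5, and not 1 spliced form. It also keeps bases shared with other rows, whose reads appear not to be counted, as described below. The order of members by RPKM therefore depends on row length as well as on level. MIR503HG, at 9.779 and 25.37 RPKM, was the highest microRNA host in both. Levels above 1 RPKM in at least 2 libraries were reached by 21 of 23 snoRNA hosts and 8 of 16 microRNA hosts. Across genes, Spearman's rho between exonic length and log2 fold change was 0.36 for the snoRNA hosts (n = 23) and -0.29 for the microRNA hosts (n = 16); the points share 4 libraries and genes are not independent replicates.

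**Figure D3:**
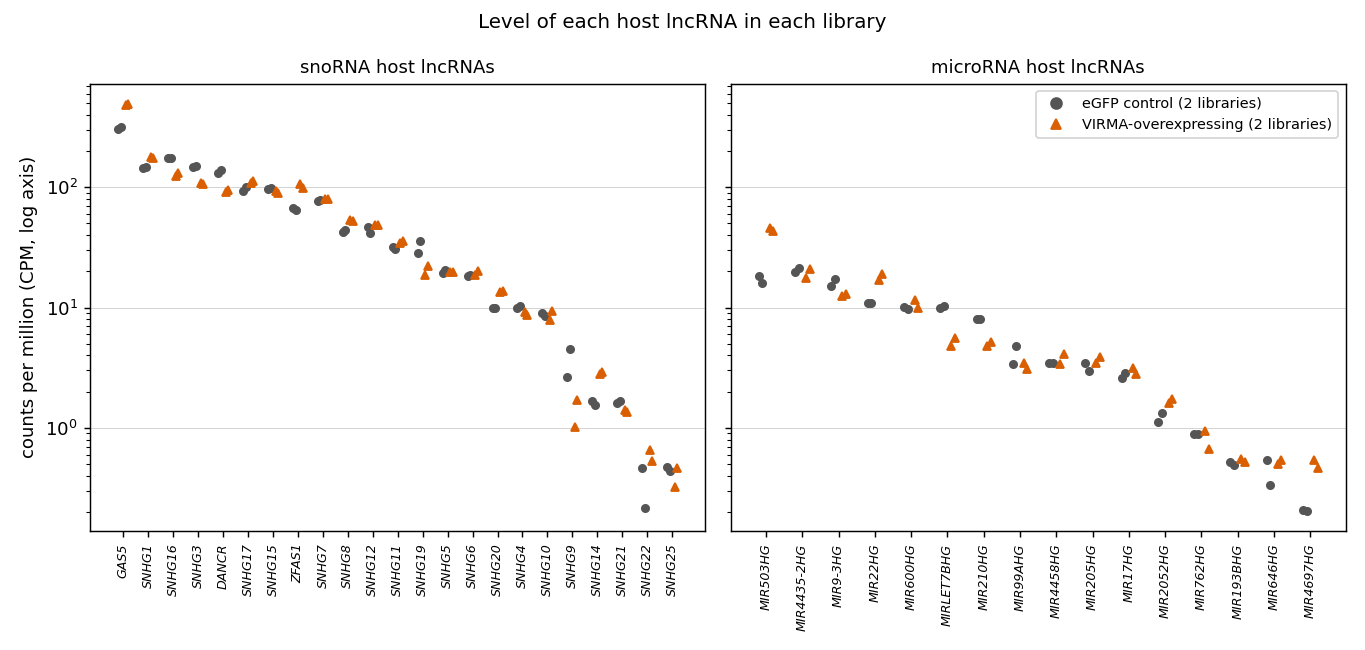
CPM (log axis) of each member in each library, ordered by mean level; circles are the 2 eGFP control libraries and triangles the 2 VIRMA-overexpressing libraries. GAS5 lies at 307.8 and 314.4 against 482.1 and 492.7 CPM, MIR503HG separates furthest among the microRNA hosts (18.3 and 16.06 against 45.73 and 43.43), and at the low end MIR4697HG lies between 0.2053 and 0.5432.

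MIR503HG showed the largest rise. MIR503HG (chrX:134543337-134546711, minus strand), whose row holds miR-503 and miR-424, which restrain cell cycle genes, had 1509 and 1330 counts against 3957 and 3663. That is 17.18 ± 1.58 CPM against 44.58 ± 1.63, 2.59-fold (log2 1.38 ± 0.0638, edgeR adjusted p = 3.84e-14). Its exons overlap no other row, and over all alternatives the change ran from 1.285 to 1.487. MIR22HG (chr17:1711493-1717174, minus strand), an early-response host of miR-22, had 897 and 905 counts against 1466 and 1602, a log2 fold change of 0.72 ± 0.0813 (edgeR adjusted p = 9.13e-08), and also overlaps no other row. MIR4697HG (chr11:133896438-133901601, minus strand) had 17 and 17 counts against 47 and 39, a log2 fold change of 1.28 ± 0.469 (edgeR adjusted p = 0.0228). It is the member with the fewest counts, reached the minimum only through its VIRMA-overexpressing libraries (34 counts in the eGFP controls), and missed the threshold with DESeq2 (adjusted p = 0.0623), with the filterByExpr filter (0.0503) and without any single library (0.0524 to 0.126).

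MIRLET7BHG, the host of let-7a-3 and let-7b, fell most among the microRNA hosts. MIRLET7BHG (chr22:46053869-46113928, plus strand) had 814 and 854 counts against 416 and 469, 10.09 ± 0.315 CPM against 5.184 ± 0.533, and fell by 0.96 ± 0.111 (edgeR adjusted p = 1.22e-07). This was short of 2-fold except without VIRMA-overexpressing replicate 2, where it was -1.069. PRR34-AS1, a row on the same strand whose exons overlap 0.9% of the exonic bases of MIRLET7BHG, fell by 1.01. MIR210HG (chr11:565660-568457, minus strand), the host of the hypoxia-responsive miR-210, had 667 and 668 counts against 418 and 434 and fell by 0.70 ± 0.115 (edgeR adjusted p = 1.84e-05). MIR9-3HG (chr15:89361579-89398487, plus strand), a host of miR-9, had 1245 and 1430 against 1075 and 1094 and fell by 0.35 (edgeR adjusted p = 0.000959). The other hosts with the let-7 seed did not pass: MIR99AHG, with let-7c, had 281 and 396 counts against 301 and 258 (log2 fold change -0.32), MIR4458HG 284 and 285 against 295 and 345 (0.12), and in both the groups overlapped. Without eGFP control replicate 1, MIR99AHG was at -0.549 and passed the adjusted p (0.00683).

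The remaining microRNA hosts did not pass. MIR4435-2HG (chr2:111196350-111495100), a spliced lncRNA of high level in this class, had 1637 and 1775 counts against 1531 and 1781, and passed the adjusted p only without VIRMA-overexpressing replicate 2 (-0.221, edgeR adjusted p = 0.0255). MIR17HG (chr13:91347820-91354579), the host of the oncogenic cluster of miR-17, miR-18a, miR-19a, miR-20a, miR-19b-1 and miR-92a-1, had 215 and 238 against 271 and 235, and the groups overlapped. All 6 hairpins of that cluster lie in exons of its row. MIR205HG (chr1:209428820-209432838), the host of the epithelial miR-205, had 284 and 246 counts against 299 and 328, a log2 fold change of 0.19 ± 0.161, and MIR600HG 833 and 809 against 999 and 842. 3 well-known hosts were under the minimum and were not tested: MIR155HG had 0 and 1 counts in the eGFP controls and 11 and 16 with VIRMA, MIR31HG had 11 and 12 against 5 and 0, and MIR100HG had none.

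**Figure D4:**
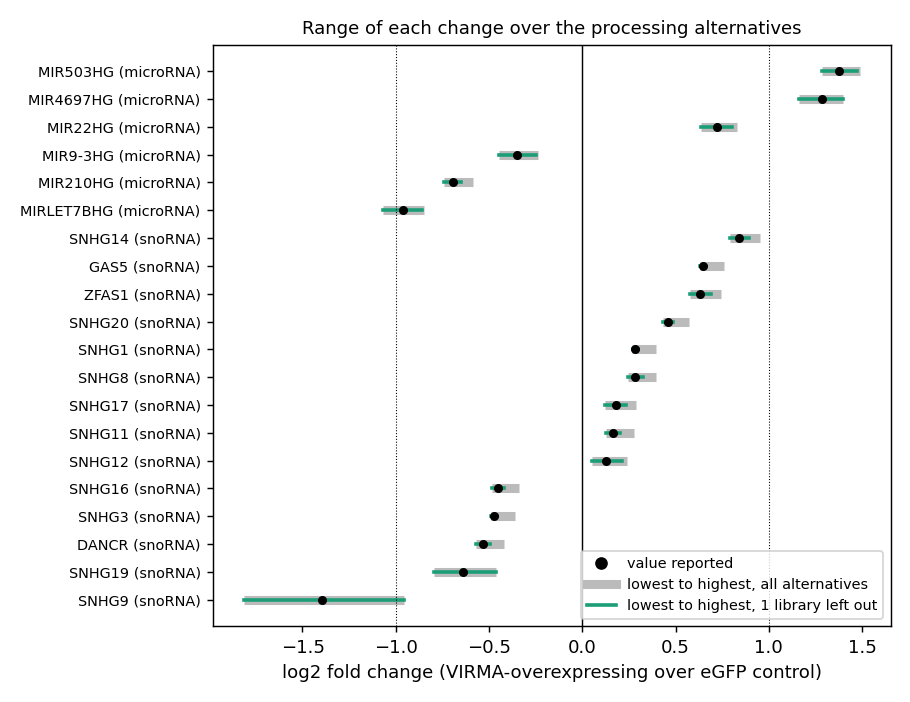
Log2 fold change of the 20 members past the adjusted p of 0.05: black points are the values reported, grey bars the lowest to highest value over all processing alternatives, green lines the lowest to highest with a library left out, dotted lines 2-fold. No bar crosses 0, and SNHG9 has the widest, from -1.813 to -0.957.

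How reads were assigned bears on host genes, because small RNAs and neighbours lie within them. Among rows lying wholly inside exons of a row with at least 10000 counts, 0 of 135 on the same strand and 0 of 206 on the opposite strand had any count. This is what counting gives when it ignores strand and drops reads that touch exons of more than 1 row. Under such counting a member's value holds no reads from exonic bases shared with another row, and 23 members (19 snoRNA hosts and 4 microRNA hosts) have such bases. MIR762HG (59.6%, opposite strand), SNHG25 (47.8%), SNHG21 (34.1%, opposite strand), SNHG6 (7.1% and, on the opposite strand, 29.3%) and SNHG4 (28.8%) did not pass, whereas ZFAS1, with the shares given above, did. Where a member's exon lies in an intron of another gene, unspliced reads of that gene cannot be told apart from those of the member.

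Many small-RNA rows within the hosts had no count, and most of those lie in SNHG14. Within exons of snoRNA hosts 0 of 20 rows had any count, as for all rows inside exons above. Within introns 15 of 88 had any, beside 7 of 13 in introns of microRNA hosts. SNHG14 holds 82 snoRNA rows in exons and introns, and only SNORD116-1 of these had any count (2, in VIRMA-overexpressing replicate 2). In the other snoRNA hosts every intronic row had counts, so these shares do not contrast the classes. Of the 11 intronic rows with at least 100 counts, 2 passed the adjusted p, where 59.7% of all genes did. All of these rows are under 600 bases, and of all tested genes under 600 bases 30.3% passed. SNORA73B, in an intron of SNHG3, had 641 and 603 counts against 497 and 378 and fell by 0.56 (edgeR adjusted p = 0.000746), in the direction of its host. SNORA60, in an intron of SNHG11, had 86 and 75 against 161 and 149, a log2 fold change of 0.90 (edgeR adjusted p = 0.00431), beside 0.16 for its host. SNORD12B and SNORD12C, in introns of ZFAS1, were at -0.21 and -0.43 and did not pass, while their host rose. These rows count polyadenylated or unspliced fragments and not the mature snoRNA.

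Many snoRNA hosts begin with a 5′ terminal oligopyrimidine (TOP) tract, the signal by which ribosomal protein mRNAs are regulated at translation. RefSeq promoters (300 bases, 250 before and 50 after the start; GRCh38.p14) were found for 33 members. A start site C followed by at least 4 C or T was present in 5 of 19 snoRNA host promoters (26.3%), in 1 of 22 microRNA host promoters (4.55%) and in 4.07% of all 35116 promoters. The windows of 4 of these snoRNA hosts, which differ in direction, are shown with the pyrimidine tract in capitals after 10 bases upstream.

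ZFAS1 (chr20:49278632-49278661, plus strand): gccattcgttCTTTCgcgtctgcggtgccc

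SNHG12 (chr1:28581854-28581883, minus strand): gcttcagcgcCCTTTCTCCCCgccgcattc

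SNHG5 (chr6:85678714-85678743, minus strand): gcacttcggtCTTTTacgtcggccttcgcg

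SNHG19 (chr16:2155339-2155368, minus strand): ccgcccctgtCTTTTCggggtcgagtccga

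Of these hosts ZFAS1 and SNHG12 were higher, SNHG19 was lower, and SNHG5, with 1590 and 1692 counts against 1699 and 1681, did not pass. SNHG4, the other snoRNA host with such a start, has a tract of 13 bases and did not pass (log2 fold change -0.18, edgeR adjusted p = 0.1). The RefSeq start listed for GAS5 lies outside its row and has no such tract, so the share depends on the starts listed. The RefSeq starts of ZFAS1 and SNHG12 lie 464 and 1110 bases inside the start of their rows in the count table, so the rows hold longer forms too. The sequence CACGTG, an E-box, was in 1 snoRNA host promoter (SNHG7) and in 7.26% of all promoters, and TGATGCAA, searched on both strands as an ATF4-type element, was in none of the members' promoters and in 0.866% of all. A match or its absence in these windows says only which letters are there.

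Genes that act on the small RNAs moved by less than 2-fold. Of 18 proteins that build snoRNA particles, 12 were lower and 2 higher at the adjusted p (median log2 fold change -0.288), beside 29.2% higher and 30.5% lower over all genes, and none passed both thresholds. NOP10 and NHP2, of the H/ACA particle, were at -0.67 and -0.46, FBL, the methyltransferase of the C/D particle, at -0.49, and NOLC1, a nucleolar chaperone, at -0.47. Of 17 microRNA processing genes 9 were higher and 5 lower (median 0.175), 82.4% in all beside 59.7% of all genes. RAN, which serves export of hairpins, was at -0.81, and DDX17, a Drosha cofactor, AGO3 and TNRC6A were at 0.65, 0.62 and 0.53. Of 14 nonsense-mediated decay factors 6 were higher and 3 lower (median 0.059), 64.3% in all and so near that background. SMG1, the kinase of the pathway, and UPF3A were at 0.60 and 0.43, UPF1, its helicase, and EIF4A3 at -0.38 and -0.53.

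Protein-coding genes can host the same kinds of small RNA. Of 94 protein-coding snoRNA hosts tested, 24 were higher and 47 lower at the adjusted p (75.5% beside 59.7% of all genes), with a median of -0.097, and only HSPA8, a chaperone gene, passed both thresholds, at -1.84. TMEM107, DNAJC27 and DDX39B, at -0.97, 0.81 and 0.78, came next in size. Of 539 protein-coding microRNA hosts 163 were higher and 206 lower (68.5%), with a median of -0.063, and 21 and 26 passed both thresholds. The changes furthest from 0 were MS4A4E at 5.04, the stress-induced GDF15 and DDIT3 at 4.03 and 3.45, and SNCB at -2.90. MS4A4E had 2 and 1 counts against 50 and 60, and SNCB 136 and 133 against 16 and 21. Each reached the minimum only through the group in which it was high, so these calls support nothing about the list. Past both thresholds were thus 1.06% of protein-coding snoRNA hosts and 8.72% of protein-coding microRNA hosts. Of the snoRNA and microRNA host lncRNAs 4.35% and 12.5% were, of all lncRNA genes tested 13.0%, and of all genes 9.68%. The 12.5% counts MIR4697HG and the 8.72% counts MS4A4E and SNCB, which all reached the minimum only through the group in which they were high. These shares were not tested against each other.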

How the data were processed

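Poly-A RNA of SKBR3 cells was sequenced in 2 eGFP control and 2 VIRMA-overexpressing libraries. The authors trimmed reads with Trimmomatic 0.39, aligned them to hg38 (Ensembl annotation) with STAR 2.5.2a and deposited raw counts per gene from featureCounts, with exon coordinates and exonic lengths; the strand setting and the handling of multi-mapping reads are not given in the sources used here. The 2 columns without a group name were assigned as the remaining group. All count columns were used.

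All 16914 rows with at least 100 counts over the 4 libraries were tested with edgeR 4.0.16 in R 4.3.3 (quasi-likelihood, TMM, group only, Benjamini-Hochberg), so that every member was tested. Thresholds were an adjusted p below 0.05 and, where stated, a change over 2-fold. RPKM was computed from counts, TMM-scaled totals and the deposited lengths; CPM uses the same totals, and the RPKM filter plain library totals. For 1 gene in 2 against 2 libraries the smallest exact permutation p (two-sided) is 0.333. The labels do not say that duplicates came from separate transductions, so p-values measure the spread between these libraries. On simulated data of 16914 genes the test recovered 94.5% of 200 genes changed by 1.5 (log2). It called 2 unchanged genes past both thresholds and 8 at the adjusted p alone. The simulation changed only these 200 genes, whereas 59.7% of all genes passed the adjusted p here, and it held no change under 2-fold. It therefore does not bear on the smaller changes called at the adjusted p alone. Alternatives used DESeq2 1.42.0 and limma 3.58.1, other scalings and filters, and fits without each library.

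Named were members past both thresholds in any fit, the 6 most abundant of each class, GAS5, ZFAS1, DANCR, 14 hosts known from cancer or stress, the members nearest the minimum and, of each pathway list, the 4 largest changes past the adjusted p; others are said to be named after their values were seen. Members and lists were chosen with earlier results of these data known.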

Additional observations from a re-analysis of the deposited data

How the results depend on the processing

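Scaling by library totals moved the median log2 fold change of all genes by 0.111 and upper-quartile scaling by 0.07, and the class medians with it: to 0.157 and 0.116 for snoRNA hosts and to 0.225 and 0.183 for microRNA hosts. The microRNA host median was 0.041 over the 8 members above 1 RPKM and 0.153 over the 12 that overlap no other row. At the adjusted p alone 9 snoRNA hosts were higher and 5 lower and 3 microRNA hosts lower. A test against 2-fold left 0 snoRNA hosts lower and 1 microRNA host higher; 1 was also the count with DESeq2, the RPKM filter and filterByExpr. The 4 snoRNA hosts that overlap no other row held 2 higher and 1 lower at the adjusted p, and 0 lower past both thresholds.

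Leaving out each library in turn gave medians of 0.01 to 0.101 for snoRNA hosts and 0.036 to 0.121 for microRNA hosts. Past both thresholds were 0 to 1 snoRNA hosts higher, 0 to 1 lower, 1 microRNA host higher and 0 to 1 lower. At the adjusted p alone 7 to 10 snoRNA hosts were higher and 5 lower, and 2 microRNA hosts were higher and 3 to 4 lower.

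Some members changed sign, none of them past the threshold after the change. SNHG5 was at 0.064, 0.106 and 0.022 and SNHG10 at 0.042, 0.084 and 0.001 with upper-quartile scaling, library totals and the RPKM filter, and with library totals SNHG15 was at 0.032 and MIR4435-2HG at 0.021. Also with library totals SNHG7 (edgeR adjusted p = 0.000949), SNHG6 (0.0248) and MIR600HG (0.0438) passed as higher, and SNHG7 passed with upper-quartile scaling (0.0115). With a library left out, SNHG5 ran from -0.047 to 0.037, SNHG10 from -0.164 to 0.101, SNHG25 from -0.485 to 0.028, MIR4435-2HG from -0.221 to 0.034, MIR762HG from -0.42 to 0.092, MIR646HG from -0.066 to 0.621 and MIR4458HG from -0.013 to 0.25. The cause was not tested.

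Replicate numbers did not pair the libraries (correlation of deviations 0.00807). With the replicate number as a block, 9 snoRNA hosts were higher and 6 lower at the adjusted p, the extra member being SNHG15 (-0.08, edgeR adjusted p = 0.0428), and the medians were 0.046 and 0.111. No other call changed. The standard error was 0.0286 for GAS5, with the most counts, and 0.469 for MIR4697HG, with the fewest, though SNHG9 (0.253) exceeded SNHG14 (0.196), which had fewer counts.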
